A study of Mus musculus with 24 samples.

Results

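Adhesion genes of myoblast fusion, 9 in all, were followed over the differentiation of C2C12 cells: the cadherins Cdh2 and Cdh15, their cytoplasmic partner Ctnnb1, the immunoglobulin adhesion proteins Ncam1 and Vcam1, the tetraspanins Cd9 and Cd81, and the metalloprotease-disintegrins Adam12 and Adam19. Members were the probe sets annotated to 1 of these 9 symbols alone. There were 14 such probe sets of 12422 on the array that were not controls, and 12 of the 14, covering 9 of 9 genes, were bright enough to be tested, as were 8484 probe sets in all. C2C12 is an immortalised mouse myoblast line, so all samples share 1 line. Total RNA was measured on 24 Affymetrix MG_U74Av2 oligonucleotide arrays, 3 for each of 8 days. Cells on days 4, 6, 8 and 10, called late below, and on day 2 had spent that many days in differentiating medium, cells on day 0 were confluent and at the point of receiving that medium, and cells on days -2 and -1 were proliferating. The question put here is which of the 9 genes differed between early and late cultures, and on which day each changed.

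Fusing myoblasts first line up and stick to each other through cadherins, which are single-pass proteins that bind their own kind on the next cell and hold the actin cytoskeleton through catenins. Immunoglobulin adhesion proteins such as NCAM and VCAM-1 add further contacts, VCAM-1 by binding the integrin VLA-4. Tetraspanins organise partner proteins in the plasma membrane, and the ADAM proteins of this group carry a disintegrin domain and were known in their early literature as meltrins of fusing muscle cells. Fusion then yields multinucleated myotubes, which are postmitotic.

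Muscle genes were read first, as a check of the labels. Myog, a transcription factor that switches on in committed myoblasts, averaged 423, 633, 20133 and 26176 intensity units on days -2, -1, 0 and 2. Myh3, the embryonic myosin heavy chain, was below the floor of 77.0 on all 6 arrays of days -2 and -1, averaged 458 on day 0, and reached 15702 on day 2. Desmin, the muscle intermediate filament Des, averaged 2436 on day -2 and 4315 on day 10. Arrays of the same day correlated at 0.935 to 0.974. The 3' to 5' ratio of the Gapdh control lay between 0.764 and 0.954 on all arrays, and that of beta-actin between 1.01 and 1.17. In a bulk culture, fewer cells of a type and less RNA per cell cannot be told apart. The labels do not say whether the 3 arrays of a day came from separate cultures, so every p-value measures only the spread between these samples.

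Promoter sequence was at hand for 5 of the 9 members (Cdh15, Cd9, Cd81, Adam19 and Ctnnb1) in RefSeq's mouse table of build GRCm38.p6. The 250 bases before the outermost annotated start are shown for 4 of them, 2 that were higher late (Cdh15, Cd81) and 2 that were highest on day 0 (Adam19, Ctnnb1). Capitals mark CANNTG, the E-box letters that myogenic bHLH factors such as MyoD can bind, which read the same pattern on both strands. Positions are Cdh15 at chr8:122848124-122848373, plus strand, Cd81 at chr7:143052500-143052749, plus strand, Adam19 at chr11:46054252-46054501, plus strand, and Ctnnb1 at chr9:120933150-120933399, plus strand.
Cdh15: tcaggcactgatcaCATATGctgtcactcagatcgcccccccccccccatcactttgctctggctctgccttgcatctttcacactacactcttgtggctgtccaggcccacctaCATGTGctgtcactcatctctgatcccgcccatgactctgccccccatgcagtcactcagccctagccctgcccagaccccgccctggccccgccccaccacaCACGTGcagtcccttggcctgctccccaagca
Cd81: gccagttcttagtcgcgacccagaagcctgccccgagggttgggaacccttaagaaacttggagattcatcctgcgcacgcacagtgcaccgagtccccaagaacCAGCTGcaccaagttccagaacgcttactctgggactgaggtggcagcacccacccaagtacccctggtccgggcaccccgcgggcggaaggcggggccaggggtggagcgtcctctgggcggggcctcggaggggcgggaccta
Adam19: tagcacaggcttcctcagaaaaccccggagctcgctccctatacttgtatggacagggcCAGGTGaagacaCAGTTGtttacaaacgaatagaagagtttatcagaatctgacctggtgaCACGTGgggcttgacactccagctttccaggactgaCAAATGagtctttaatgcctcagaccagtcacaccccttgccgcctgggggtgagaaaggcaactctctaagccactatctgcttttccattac
Ctnnb1: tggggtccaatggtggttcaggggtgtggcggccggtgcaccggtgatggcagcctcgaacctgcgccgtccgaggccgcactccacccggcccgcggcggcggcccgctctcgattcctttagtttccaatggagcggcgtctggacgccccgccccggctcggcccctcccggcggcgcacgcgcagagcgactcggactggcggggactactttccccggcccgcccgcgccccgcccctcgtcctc
The Cdh15 window held 3 matches, the Adam19 window 4, the Cd81 window 1 and the Ctnnb1 window 0, and the Cd9 window, not printed, held 3. Of all 32851 promoter windows of this length in the table, 66.2% held CANNTG. The form CAGCTG was the single Cd81 match and 1 of the Cd9 matches, was found 4 times in another annotated Adam19 window, and was in 13.0% of all windows. The GC-rich letters GGGCGG, searched on both strands, were found 3 times each in the Cdh15, Cd81 and Ctnnb1 windows and 0 times in the Adam19 window, against 32.7% of all windows with at least 1. A match of letters is a description and not a binding site, and Adam19 and Ctnnb1 have further annotated starts.

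Of the 12 tested probe sets 10, of 8 genes, differed among the 8 days by limma's moderated F test at an adjusted p under 0.05, the threshold used throughout. The share of all tested probe sets called in that test was 55.1%. The 2 that did not pass were Adam12 (adjusted p = 0.318) and the dim Ncam1 probe set 161750_f_at (adjusted p = 0.175). The widest day-to-day range was that of Vcam1, whose probe set 92559_at was 5.28-fold brighter on its highest than on its lowest day, and the narrowest was the 1.47-fold range of Ctnnb1.

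**Figure D1:**
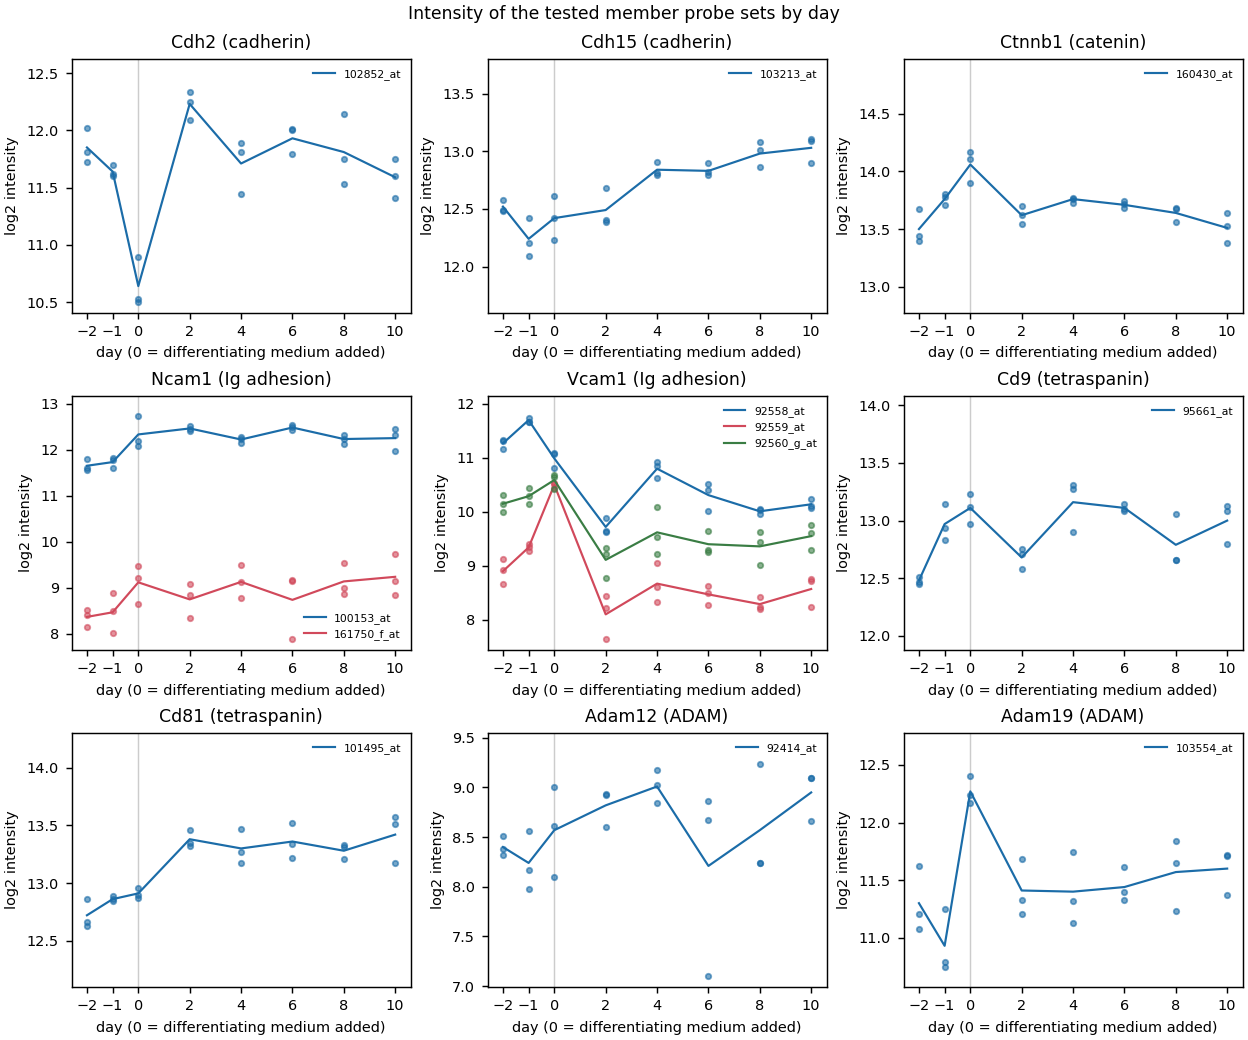
Log2 intensity of every tested member probe set (vertical axis) against the day of culture (horizontal axis, vertical line at the medium change), with 1 point per array and lines through the means of 3 arrays. Cdh2 has its lowest day and Adam19, Ctnnb1 and Vcam1 probe set 92559_at have their highest day on day 0, while Cdh15 and Cd81 are higher late than in proliferating cells.

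Cdh2 encodes N-cadherin, the cadherin that myoblasts share with neurons, and its RNA was lowest on day 0. The arrays read 3584, 3384 and 4152 on day -2, 3099, 3338 and 3148 on day -1, and 1892, 1450 and 1478 on day 0. On day 2 they read 4371, 5160 and 4873, the highest mean of any day, though replicate 3 of day 8 read 4515. All 3 arrays of day 0 lay below each of the other 21 arrays, and all 3 of day 2 lay above those of days -2, -1 and 0. Cdh2 was lower by -1.21 ± 0.15 on the log2 scale (estimate ± standard error) on day 0 than on day -2 (adjusted p = 7.80e-07) and higher by 1.59 ± 0.15 on day 2 than on day 0 (adjusted p = 1.76e-08). Within the largest chip lot, the only lot that held both days, these differences were -1.10 and 1.51. The first compared 2 arrays of day 0 with 1 of day -2, and the second 2 arrays with 2. Only 1 scan day held both day 0 and day 2, with 1 array each, and there the difference was 1.56. Day 0 shared no scan day with days -2 and -1, so its level can hardly be told apart from an effect of scan day.

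After day 2 Cdh2 fell again, to 3106, 2730 and 3449 on day 10 against 4371, 5160 and 4873 on day 2, a difference of -0.64 ± 0.15 (adjusted p = 0.00490). The arrays of day 4 read 2778, 3790 and 3590 and already differed from day 2 by -0.51 ± 0.15 (adjusted p = 0.0221). The 12 late arrays spanned 2730 to 4515 with a median of 3495, against 3099 to 4152 with a median of 3361 in the 6 proliferating ones. The groups overlapped and their difference of 0.01 ± 0.09 did not pass (adjusted p = 0.908). With scan day as a factor the day 10 minus day 2 difference was -0.46 and no longer passed (adjusted p = 0.271). Of the 5 neural markers on the array, 3 were tested. Tubb3, which carried most of their summed intensity, averaged 13896, 12333, 8968 and 14324 on days -2, -1, 0 and 2, and 9674 on day 4. On days -2, -1, 0 and 2 Gfap averaged 382, 288, 343 and 430, and Mbp 227, 234, 265 and 221. The neural sum was 12790 to 15980 on day -2, 7962 to 10800 on day 0 and 13010 to 16820 on day 2. On day 4 it was 10000 to 11520, which overlapped day 0. Snap25 was at the floor on 21 of 24 arrays and Syp on 16, and the part of such cells in the Cdh2 values was not tested.

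Cdh15 encodes M-cadherin, a cadherin largely restricted to skeletal muscle and its stem cells, and its RNA was higher in late cultures. Probe set 103213_at averaged 5858 ± 221, 4857 ± 568, 5511 ± 738 and 5784 ± 690 on days -2, -1, 0 and 2 (SD, n = 3 each). On days 4, 6, 8 and 10 it averaged 7321 ± 319, 7308 ± 278, 8112 ± 616 and 8401 ± 670. The lowest of the 12 late arrays (7081) lay above the highest of the 6 proliferating ones (6110), and the difference was 0.54 ± 0.07 (adjusted p = 1.81e-07). The step that passed was day 4 against day 2, at 0.35 ± 0.11 (adjusted p = 0.0336), and the neighbouring late days in the order of levels overlapped each other. Between days 0 and -2, where Cdh2 fell, the Cdh15 difference was -0.10 ± 0.11 and did not pass (adjusted p = 0.581). The second probe set of Cdh15, 161366_r_at, was at the floor on 20 of 24 arrays and was not tested.

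Ctnnb1 encodes beta-catenin, which links cadherins to the cytoskeleton and also carries Wnt signals to the nucleus. It read 17742, 15242 and 18407 intensity units on day 0, against 13078, 10773 and 11151 on day -2. The day 0 arrays lay above those of every other day, and the difference was 0.55 ± 0.09 over day -2 (adjusted p = 2.41e-05) and 0.30 ± 0.09 over day -1 (adjusted p = 0.0144). Day 0 shared no scan day with those days, so this peak too can hardly be told apart from an effect of scan day. Day 2, at 13337, 12591 and 11901, was lower than day 0 by -0.44 ± 0.09 (adjusted p = 5.90e-04). Late and proliferating cells did not differ beyond the threshold, at 0.02 ± 0.05 (adjusted p = 0.763), and all day means apart from day 0 lay between 11667 and 13911.

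Ncam1 encodes the neural cell adhesion molecule, an immunoglobulin protein of myoblasts and neurons. Its bright probe set 100153_at was higher on day 0 than before it, and day 2 minus day 0 did not pass (0.13 ± 0.13, adjusted p = 0.598). With chip lot as a factor that difference was 0.31 and passed (adjusted p = 0.0436). It read 3020, 3552 and 3094 on day -2 and 3618, 3109 and 3501 on day -1, and then 4688, 6736 and 4291 on day 0 and 5830, 5412 and 5611 on day 2. No array of day 0 or later fell below the highest proliferating one. The difference was 0.59 ± 0.13 between days 0 and -1 (adjusted p = 0.00162) and 0.68 ± 0.13 between days 0 and -2 (adjusted p = 3.32e-04). With scan day as a factor the difference from day -2 was 0.33 and did not pass (adjusted p = 0.501). Within the largest chip lot it was 0.57, from 2 arrays of day 0 and 1 of day -2.

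In the late cells Ncam1 spanned 4032 to 5914 with a median of 5031, against 3020 to 3618 with a median of 3305 in proliferating cells, a difference of 0.60 ± 0.08 (adjusted p = 1.03e-06). The second tested probe set, 161750_f_at, whose suffix marks probes that can match related sequences, was dimmer and differed by 0.64 ± 0.21 (adjusted p = 0.0118). Its groups overlapped, at 240 to 846 late and 257 to 475 proliferating. Under quantile normalization its difference was 0.47 (adjusted p = 0.0700), and with scan day as a factor it was 0.36 (adjusted p = 0.576). The third, 100152_at, was at the floor on 15 of 24 arrays and was not tested.

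Vcam1 encodes vascular cell adhesion molecule 1, the ligand of the integrin VLA-4, and was the member that was lower late than in proliferating cells on all of its probe sets. Probe set 92558_at read 2578, 2306 and 2558 on day -2, 3266, 3265 and 3423 on day -1, and 2184, 2147 and 1799 on day 0. On day 2 it read 794, 950 and 802, the lowest of all days. It then stood at 1950, 1843 and 1569 on day 4 and averaged 1284 ± 219, 1033 ± 31.8 and 1126 ± 69.4 on days 6, 8 and 10. Each late array, from 997 to 1950, lay below every proliferating one, from 2306 to 3423, and the difference was -1.17 ± 0.08 (adjusted p = 1.54e-11).

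The day 2 trough of 92558_at was passed on both sides. Day 2 was lower than day 0 by -1.27 ± 0.13 (adjusted p = 1.27e-07), and day 4 was higher than day 2 by 1.07 ± 0.13 (adjusted p = 5.92e-06). Day 10 was higher than day 2 by 0.41 ± 0.13 (adjusted p = 0.0441), a call that was lost without any 1 of 9 arrays (day -2 replicate 1, each of day -1, day 2 replicates 1 and 3, and each of day 10). Over all 24 omissions of 1 array, these 9 and the others, the estimate was 0.36 to 0.49 and the adjusted p 0.0269 to 0.151. It was also lost under quantile normalization (0.38, adjusted p = 0.0872), with the chip lot as a factor (0.42, adjusted p = 0.0852) and in the fit blocked on replicate number (0.41, adjusted p = 0.0526), and with scan day as a factor (0.55, adjusted p = 0.125).

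The 3 Vcam1 probe sets parted on day 0. Probe set 92559_at read 1475, 1463 and 1403 on day 0, against 655, 617 and 675 on day -1, and was higher by 1.16 ± 0.24 (adjusted p = 6.53e-04). Over the same step 92558_at was lower by -0.70 ± 0.13 (adjusted p = 3.20e-04), so both passed in opposite directions. The third, 92560_g_at, at 1657, 1608 and 1371 on day 0 against 1256, 1128 and 1391 on day -1, overlapped between the days and did not pass (0.30 ± 0.22, adjusted p = 0.372). Against day -2 the day 0 difference was 1.60 ± 0.24 for 92559_at (adjusted p = 1.01e-05), 0.44 ± 0.22 for 92560_g_at (adjusted p = 0.142) and -0.28 ± 0.13 for 92558_at (adjusted p = 0.120).

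Day 2 minus day 0 was negative for all 3, at -2.40 ± 0.24 for 92559_at (adjusted p = 3.97e-08) and -1.48 ± 0.22 for 92560_g_at (adjusted p = 1.54e-05) beside the value of 92558_at above. Late against proliferating they gave -0.62 ± 0.14 (adjusted p = 7.82e-04) and -0.74 ± 0.13 (adjusted p = 4.55e-05), with overlapping groups in both. The rise after day 2 was called on 92558_at alone. Day 4 minus day 2 was 0.57 ± 0.24 for 92559_at (adjusted p = 0.124) and 0.51 ± 0.22 for 92560_g_at (adjusted p = 0.133). Day 10 minus day 2 was 0.47 ± 0.24 (adjusted p = 0.219) and 0.44 ± 0.22 (adjusted p = 0.206), in that order. When scan day was a factor, 92559_at late (-0.50, adjusted p = 0.169) and 92560_g_at on day 2 (-1.09, adjusted p = 0.0687) no longer passed. The sources do not say which Vcam1 transcript each probe set reads, and the direction of Vcam1 on day 0 depends on the probe set.

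**Figure D2:**
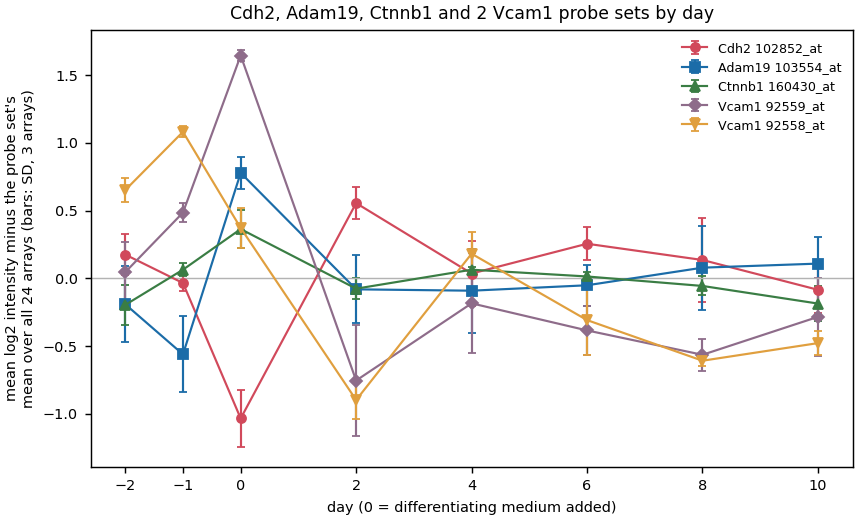
Mean log2 intensity of 5 probe sets by day, each minus its own mean over all 24 arrays (vertical axis, bars give the SD of 3 arrays), against the day of culture. On day 0 Cdh2 is at its lowest while Adam19, Ctnnb1 and Vcam1 92559_at are at their highest, and Vcam1 92558_at has its highest day on day -1 and its lowest on day 2.

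Cd9, a tetraspanin of many cell membranes and of the sperm-egg junction, changed in small steps. It read 7256, 7846 and 9010 on day -1, against 5682, 5816 and 5604 on day -2, and was the 1 member that passed between these days (0.49 ± 0.12, adjusted p = 0.0111). Day 0, at 7998, 9615 and 8894, was 0.63 ± 0.12 above day -2 (adjusted p = 2.72e-04). Day 2, at 6709, 6129 and 6872, was lower than day 0 by -0.43 ± 0.12 (adjusted p = 0.0133), and day 4, at 9891, 7646 and 10161, was 0.48 ± 0.12 above day 2 (adjusted p = 0.00885). The day 2 decrease was lost without day 0 replicate 2 or day 2 replicate 2 (adjusted p up to 0.0703) and with the chip lot as a factor (-0.30, adjusted p = 0.119). Late arrays spanned 6464 to 10161 and proliferating ones 5604 to 9010, so the difference of 0.29 ± 0.07 (adjusted p = 0.00173) came with overlapping groups. None of the 3 Cd9 calls of the main comparisons passed with scan day as a factor, at 0.24 late (adjusted p = 0.168), 0.72 on day 0 over day -2 (adjusted p = 0.102) and -0.41 on day 2 minus day 0 (adjusted p = 0.245).

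Cd81, a tetraspanin that often partners Cd9, had 1 step, between days 0 and 2. It read 10416, 10250 and 11240 on day 2, against 7636, 7471 and 7973 on day 0, a difference of 0.47 ± 0.10 (adjusted p = 0.00178). All late arrays, from 9185 to 12184, lay above all proliferating ones, from 6326 to 7590, by 0.55 ± 0.06 (adjusted p = 9.09e-08). The means of days 2 to 10 lay between 9960 and 11017 and their arrays overlapped. With scan day as a factor the day 2 step was 0.39 (adjusted p = 0.266), while the late difference of 0.71 passed (adjusted p = 7.06e-04).

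Adam19, or meltrin beta, a protease that sheds neuregulins from the cell surface, had its highest day at confluence. It read 4837, 5393 and 4599 on day 0, against 1720, 1767 and 2440 on day -1 and 2370, 3146 and 2172 on day -2. Every day 0 array lay above each of the other 21, whose highest was 3661. The difference was 1.34 ± 0.19 over day -1 (adjusted p = 6.81e-06) and 0.96 ± 0.19 over day -2 (adjusted p = 2.51e-04). As for Cdh2 and Ctnnb1, the day 0 level can hardly be told apart from an effect of scan day. Day 2, at 2566, 2369 and 3283, was lower than day 0 by -0.86 ± 0.19 (adjusted p = 0.00123). Late arrays, from 2246 to 3661, overlapped with proliferating ones, from 1720 to 3146, at a difference of 0.39 ± 0.11 (adjusted p = 0.00579). With scan day as a factor the day 2 and late differences were -0.84 and 0.50 and did not pass (adjusted p = 0.107 and 0.0703).

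Adam12, or meltrin alpha, was dim, with day means between 306 and 519, and passed in no comparison. Late arrays spanned 138 to 606 with a median of 462, against 252 to 378 with a median of 326 in proliferating cells, a difference of 0.37 ± 0.22 (adjusted p = 0.164). The low end was 1 array, replicate 2 of day 6 at 138, whose day mates read 466 and 409. Without it the difference was 0.51 (adjusted p = 0.0184), and with a higher floor at the 40th percentile it was 0.43 (adjusted p = 0.0229).

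Read across the members, day 0 against day -2 had 5 probe sets higher and 1 lower, with 16.5% and 16.1% of all tested probe sets called in those directions and 32.5% in either. Day 2 against day 0 had 2 higher (Cdh2 and Cd81) and 6 lower (the 3 of Vcam1, Cd9, Adam19 and Ctnnb1), where 11.2% of all probe sets were higher and 10.4% lower. Day 10 against day 2 had 2 higher (Cdh15 and Vcam1 92558_at) and 1 lower (Cdh2), with backgrounds of 6.52% and 7.26%. Late against proliferating cells, 6 were higher (Cdh15, both of Ncam1, Cd9, Cd81 and Adam19) and 3 lower (all of Vcam1), with backgrounds of 28.7% and 28.1%, or 56.8% in either direction. The median difference of the 12 was 0.50, -0.40, 0.26 and 0.33 in these comparisons, in that order, where the median of all tested probe sets was 0.01, 0.00, 0.00 and 0.07. These comparisons share days, and so arrays, with each other, so their counts are not independent.

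Step by step, 6 member probe sets, of 5 genes, passed between days -1 and 0 (background 25.8%, with 11.9% higher and 13.9% lower). Higher were Ncam1 100153_at, Vcam1 92559_at, Adam19 and Ctnnb1, and lower were Cdh2 and Vcam1 92558_at. Between days 2 and 4 there were 4 (background 13.9%, with 6.39% higher and 7.56% lower): Cdh15, Vcam1 92558_at and Cd9 higher, and Cdh2 lower. Only Cd9 passed between days -2 and -1 (background 9.29%, with 6.07% higher and 3.22% lower). In limma 0 of 12 passed in any of the 3 later steps, where 0.389% (0.248% higher and 0.141% lower), 0.0471% and 0.0% of all probe sets did. At an unadjusted p under 0.05 there were 2 between days 4 and 6 (Vcam1 92558_at and Adam12), 2 between days 6 and 8 (Vcam1 92558_at and Cd9) and 0 between days 8 and 10.

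**Figure D3:**
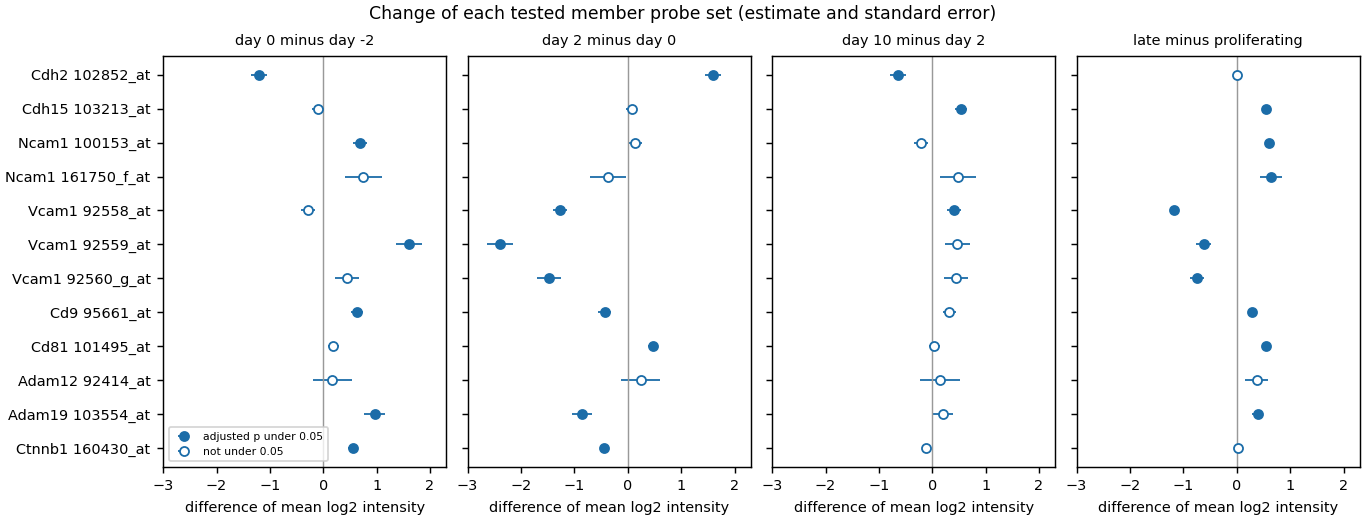
Difference of mean log2 intensity (horizontal axis, bars give the standard error) for the 12 tested member probe sets in 4 comparisons, filled where the adjusted p was under 0.05. Vcam1 92559_at has the widest swing, 1.60 on day 0 over day -2 and -2.40 on day 2 over day 0, and these neighbouring comparisons share day 0.

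Markers of other cell types were read beside the day 0 values. Of 7 adipocyte markers, 6 were on the array, and their summed intensity was 6671 to 6809 on day 0, 1818 to 2439 on day -2, 3261 to 3326 on day -1 and 1672 to 2205 on day 2. The day 0 sum was mainly Cebpa, at a mean of 3561, and Lpl, at 2698. Pparg, the third tested marker of the list, averaged 421 on day -2, 204 on day 0 and 117 on day 2. Adipoq, Fabp4 and Retn were too dim to be tested, and were at the floor on 3, 11 and 21 of 24 arrays. Whether such cells had a part in the day 0 peaks of Adam19, Ctnnb1 and Vcam1 92559_at was not tested. Of 7 macrophage markers 3 were tested: Cd14, with day means of 1381 to 1920, Csf1r (166 to 311) and Cd68 (189 to 324). Ptprc and Lyz2 were at the floor on 22 and 24 of 24 arrays, and the summed list spanned 1729 to 2777 over all days. Of 6 endothelial markers 3 were tested, Pecam1 (172 to 391), Kdr (158 to 343) and Cd34 (148 on day 2 and 466 on day 4). Cdh5 was at the floor on 23 arrays, and the summed list spanned 467.9 to 2188. The part of such cells in the members' values was not tested.

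Whether the 2 members of a family changed unequally was tested on the difference of their log2 intensities on the same array, with the 12 late arrays against the 6 proliferating ones. The test was a 2-sided exact permutation over 18564 regroupings, 4 pairs were compared, and p-values were adjusted over the 4. Days within a group were pooled and their arrays treated as exchangeable, so the spread includes differences between days. The size of such a difference within 1 group carries no meaning, since probe sets differ in brightness, so only its change is read. Cdh2 minus Cdh15 averaged -1.16 ± 0.26 late and -0.63 ± 0.14 in proliferating cells (SD, n = 12 and 6), a change of -0.53 (exact permutation, adjusted p = 8.62e-04), so Cdh15 gained relative to Cdh2. Vcam1 minus Ncam1 averaged -1.98 ± 0.40 late and -0.21 ± 0.24 in proliferating cells, and the groups did not overlap. That change of -1.77 had an exact p of 5.39e-05, the smallest that the regroupings allow (adjusted p = 2.15e-04). Each of these 2 genes alone already separated the groups, in opposite directions, so that smallest p followed from the results above.

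Cd9 minus Cd81 changed by -0.26, with means of -0.32 ± 0.19 late and -0.07 ± 0.23 in proliferating cells (SD, n = 12 and 6; exact permutation, adjusted p = 0.0284). That call was lost without any 1 of the 3 arrays of day -1, where the change was -0.25, -0.23 and -0.18 (exact permutation, adjusted p = 0.0537, 0.0668 and 0.103). Adam19 minus Adam12 averaged 2.81 ± 0.72 late and 2.80 ± 0.41 in proliferating cells, and its change of 0.02 did not pass (exact permutation, adjusted p = 0.962). The wide late spread of that pair includes the Adam12 array of day 6 named above.

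**Figure D4:**
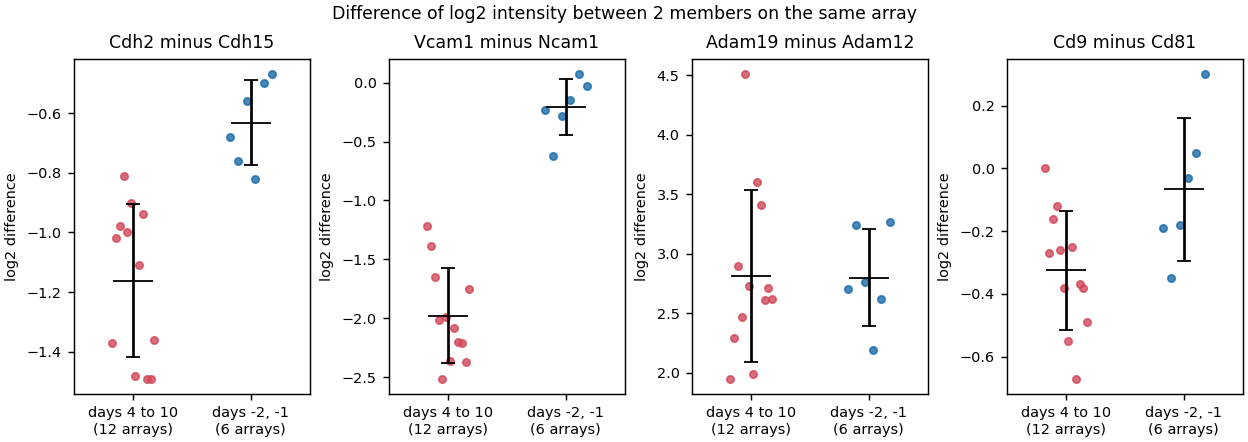
Difference of log2 intensity between 2 members of a family on the same array (vertical axis), for late arrays (days 4 to 10, left) and proliferating arrays (days -2 and -1, right), with the mean and SD. Vcam1 minus Ncam1 is lower on every late array than on any proliferating one, and Adam19 minus Adam12 overlaps throughout.

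The daily means of the members were also set beside each other, over 8 days and as a description only, since all points share the same arrays. Cdh2 ran opposite to Ctnnb1 (Pearson's r = -0.77) and Adam19 (r = -0.72), as its day 0 dip met their day 0 peaks. Vcam1 92558_at ran opposite to Cd81 (r = -0.86) and Ncam1 (r = -0.79), and Ncam1 and Cd81 ran together (r = 0.80). Among all tested genes, the daily means most like those of Cd81 were those of Prnp and Myorg (r = 0.990 each), the most like Adam19 were St6galnac4 (r = 0.973) and Clic4 (r = 0.955), and the most like Ctnnb1 were Cast (r = 0.982) and Spin1 (r = 0.966). Cdh2 was nearest to Pfkp (r = 0.949) and Thop1 (r = 0.948), Cdh15 to Rgs14 and P4ha2 (r = 0.969 each), Ncam1 to Ddx25 (r = 0.983) and Fyttd1 (r = 0.982), and Cd9 to Dhrs1 (r = 0.972) and Smim14 (r = 0.965). The Vcam1 probe sets had different neighbours, Gstp1 (r = 0.966) and Nelfe (r = 0.965) for 92558_at, Smad6 (r = 0.982) and Nsg1 (r = 0.970) for 92559_at, and Slpi (r = 0.989) and Smarcd1 (r = 0.987) for 92560_g_at.

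Other genes of the same families were read from lists chosen with earlier results of these data known, 1 probe set a gene. All were read in late against proliferating cells, where the median over all tested probe sets was 0.07 and 28.7% were higher and 28.1% lower. Of 11 tested cadherins and catenins, 5 were higher and 0 lower (median 0.40). Cdh11, among the 5, averaged 183 and 200 on days -2 and -1, under the testing threshold, so its call follows in part from the filter. Jup, plakoglobin, the close relative of beta-catenin, was 6470 to 11600 late and 888 to 3180 in proliferating cells, a difference of 2.29 ± 0.13 (adjusted p = 1.90e-13). Cdh13, a cadherin held by a lipid anchor, differed by 2.21 ± 0.22 (adjusted p = 6.62e-09), against 0.54 for Cdh15 and 0.01 for Cdh2.

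Of 12 tested immunoglobulin adhesion proteins 2 were higher and 3 lower (median 0.01). The junctional proteins Jam3 and F11r were higher by 1.23 ± 0.15 (adjusted p = 1.72e-07) and 0.96 ± 0.09 (adjusted p = 5.91e-09). Alcam and Mcam, like Vcam1, were lower, by -2.02 ± 0.16 (adjusted p = 2.04e-10) and -1.35 ± 0.13 (adjusted p = 2.36e-09). Alcam was 145 to 446 late and 948 to 1230 in proliferating cells.

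Of 15 tetraspanins and partners 8 were higher and 1 lower (median 0.44). Tspan32 was 1130 to 1790 late and 87.1 to 226 in proliferating cells (3.18 ± 0.16, adjusted p = 2.42e-14). Its means of 151 and 171 on days -2 and -1 were under the testing threshold, so its call follows in part from the filter. The same holds for Tspan13, among the 8, with means of 27.5 and 24.5 and 6 of 6 proliferating arrays at the floor. Tspan8 was 391 to 1020 late and at the floor on 5 of 6 proliferating arrays, so the size of its difference, 2.90, is set by the floor. It was bright enough for testing only on late days. Tspan4 was lower, by -0.53 ± 0.08 (adjusted p = 3.05e-06).

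Of 10 tested ADAMs 1 was higher, Adam5, by 0.81 ± 0.14 (adjusted p = 2.63e-05), and 2 were lower (median 0.28). Adam8 was 367 to 758 in proliferating cells and at the floor on 8 of 12 late arrays. It was bright enough for testing only on days -2, -1 and 0, and the size of its difference, -2.63, is set by the floor. Adam9, meltrin gamma, was lower by -0.63 ± 0.07 (adjusted p = 5.75e-08). Of the meltrins, Adam19 was higher, Adam9 was lower and Adam12 did not pass.

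Among 7 tested integrins and sialyltransferases that bind or modify the members, 4 were higher and 2 lower (median 0.23). Itga4, the alpha chain of VLA-4 and so a chain of the Vcam1 receptor, was 206 to 391 late, against 55.1 to 118 in proliferating cells with 2 of 6 arrays at the floor, a difference of 1.51 that depends in part on the floor. It was bright enough for testing only on days 8 and 10, so that it was called higher follows in part from the filter. Its partner Itgb1 differed by 0.23 ± 0.07 (adjusted p = 0.00390), or 0.52 ± 0.06 on a second probe set (adjusted p = 1.56e-07), and the laminin receptor chain Itga7 by 1.59 ± 0.07 (adjusted p = 8.41e-15). Itga3 and Itga6 were lower, by -0.84 ± 0.13 (adjusted p = 1.01e-05) and -0.43 ± 0.16 (adjusted p = 0.0269). Itga9 was not analysed here.

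Of 15 fusion machinery genes 2 were higher and 7 lower (median 0.05), and the fusogens Mymk and Mymx were not analysed here. Trio, an exchange factor for Rac proteins, was higher by 1.18 ± 0.07 (adjusted p = 1.21e-12) and Dock5 by 0.21 ± 0.07 (adjusted p = 0.0212), with Dock5 1.19 ± 0.12 higher on day 0 than on day -2 (adjusted p = 4.27e-08). Arf6, a small GTPase of membrane traffic, was lower by -1.05 ± 0.19 (adjusted p = 3.60e-05), while its second probe set, at -0.55 ± 0.28, did not pass (adjusted p = 0.0969). Wipf1, a partner of WASP proteins, was lower by -0.89 ± 0.14 (adjusted p = 8.33e-06).

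Of 10 partners and regulators of beta-catenin, 4 were higher and 1 lower (median 0.11), though Ctnnb1 itself did not differ late. Btrc, which marks beta-catenin for degradation, was higher by 0.77 ± 0.10 (adjusted p = 7.01e-07). The kinase Csnk1a1 was higher by 0.64 ± 0.06 (adjusted p = 3.21e-09) on 1 probe set and at 0.04 ± 0.07 (adjusted p = 0.599) on the other. Cdk8 was lower by -1.05 ± 0.09 (adjusted p = 1.21e-09).

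**Figure D5:**
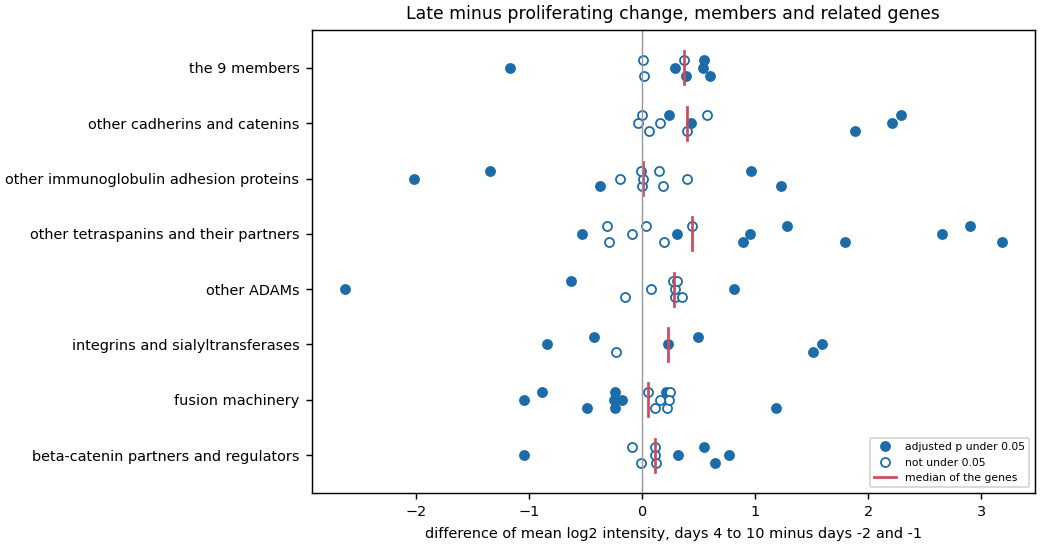
Late minus proliferating difference of mean log2 intensity (horizontal axis), 1 point a gene, for the 9 members and 7 lists of related genes, filled where the adjusted p was under 0.05, with the median of each row as a vertical bar. The members run from -1.17 for Vcam1 to 0.60 for Ncam1, and the many related genes outside that range include Jup, Cdh13, Tspan32, Tspan8, Alcam and Adam8.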

How the data were processed

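Total RNA of C2C12 cells on 8 days was measured on 24 arrays. The authors deposited linear intensities per probe set; how they summarised the probes is not given in the sources used here. Trimmed means of the arrays lay between 1500.85 and 1500.98, so no rescaling was done. The array information deposited beside them names 5 chip lots and 11 scan days, which served as batches. The day 0 arrays were scanned on scan days 1, 2 and 3, and of these only scan day 3 held another array, of day 2. With scan day as a factor, differences from day 0 therefore rest on 1 array of day 0. The levels of day 0 can hardly be told apart from an effect of scan day. Symbols came from the platform annotation, updated by gene identifier.

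Values under the 20th percentile (77.0) were raised to it, which held 15.7% to 25.6% of the values of an array, then log2 was taken. Testing required a daily mean above the 40th percentile (277.7) on some day. A single model of 8 day means was fitted with limma's lmFit and eBayes with trend (limma 3.58.1, R 4.3.3, 16 residual degrees of freedom), 2-sided, with Benjamini-Hochberg adjustment over all 8484 tested probe sets. "Late" is the mean of the 4 day means from day 4 to day 10, set against the mean of the 2 proliferating days. The script was tested on simulated data. A gene with several probe sets was represented by the brightest by mean log2. Named were all members, the 2 called genes with the largest rise and fall in each list, and Mymk, Itga4, Itga9, Itgb1, Myog, Myh3 and Des, and the 2 genes most like each changing member by Pearson's r over the 8 daily means. Alternatives were other floors, a pseudocount, quantile normalization, no filter, no trend, batch and replicate terms, and leaving out each array. Apart from day 2 minus day 0, steps between successive days were not rerun with batch terms, without trend or with an array left out. Days -1 and 0 shared no scan day. The members and lists were chosen with earlier results of these data known. The number of arrays limits precision. Figures were drawn with matplotlib 3.10.9.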

Additional observations from a re-analysis of the deposited data

How the results depend on the processing

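The 4 main comparisons gave 26 called member changes, of which 0 changed sign under any of the alternatives run. All 26 kept their call under both other floors, a pseudocount, no filter, a prior without trend and scan day as a random block. 24 kept it under quantile normalization and with chip lot as a factor, 25 with the replicate block, 20 in the largest chip lot alone (3 residual degrees of freedom, no day 4) and 14 with scan day as a factor (6 residual degrees of freedom). With scan day as a factor, calls were 3 higher for day 0 minus day -2, 1 higher and 3 lower for day 2 minus day 0, 1 higher and 0 lower for day 10 minus day 2, and 3 higher for late minus proliferating. In the largest lot, 1 was higher for day 2 minus day 0 and 0 for day 10 minus day 2. Day 10 minus day 2 had 1 higher under quantile normalization, the replicate block and the lot factor, and 1 to 2 when leaving out 1 array. Day -1 minus day -2 had 2 calls under quantile normalization, a pseudocount, no filter and the replicate block. The 6 calls lost in the largest lot were Cd81 on day 2 minus day 0 (0.41), Cdh15 and Vcam1 92558_at on day 10 minus day 2 (0.50 and 0.30), and late differences of Ncam1 161750_f_at (0.54), Vcam1 92559_at (-0.67) and Adam19 (0.29).

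Among differences not called, signs turned with scan day as a factor for Cdh15 (day 0 minus day -2, 0.09; day 2 minus day 0, -0.03), Vcam1 92560_g_at (day 0 minus day -2, -0.16), Adam12 (day 2 minus day 0, -0.02), Cd81 (day 10 minus day 2, -0.15) and Adam19 (day 10 minus day 2, -0.13). They turned with the lot factor for Adam12 (day 0 minus day -2, -0.08), Cd81 (day 10 minus day 2, -0.01) and Ctnnb1 (late, -0.03), and in the largest lot for Adam12 (-0.15 on day 0 minus day -2, -0.10 on day 10 minus day 2) and Ctnnb1 (late, -0.18). Leaving out 1 array gave -0.04 to 0.41 for Adam12 (day 0 minus day -2), -0.02 to 0.17 for Cdh15 and 0.00 to 0.32 for Ncam1 (day 2 minus day 0), -0.04 to 0.17 for Cd81 (day 10 minus day 2), -0.03 to 0.06 for Cdh2 and -0.01 to 0.06 for Ctnnb1 (late).

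The pair change of Cdh2 minus Cdh15 was -0.03 with the dim Cdh15 probe set (exact permutation, adjusted p = 0.962), and that of Adam19 minus Adam12 was -0.05 with the floor at the 40th percentile and -0.14 to 0.11 when leaving out 1 array, and Cd9 minus Cd81 was -0.31 to -0.18 when leaving out 1 array. Why results changed under an alternative was not tested. Some alternatives also have fewer arrays or degrees of freedom. The labels do not say that a replicate number marks a shared culture or day. Deviations of same-numbered arrays correlated at 0.0331 on average, 16 of 84 pairs were over 0.1, and 17 of 24 arrays were closest to their own number, a hint from the data and not from the design.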
